A study of Mus musculus with 2 samples.

Results

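Collagen mRNA was followed through the cell types of the mouse ovary in 2 single-cell RNA sequencing libraries. The collagen genes were all symbols made of Col, digits, a and digits that both gene lists held, which gave 44 genes of 29373 symbols in all. The PS-MP library came from female ICR mice gavaged daily with 1 mg of polystyrene microplastics (PS-MP) of 0.1 µm in 100 µL for 35 days from 3 weeks of age, and the control library from females of the same strain and age given ddH2O. Ovaries were taken at 8 weeks and their cells were captured on BD Rhapsody beads, which tag each mRNA molecule with a unique molecular identifier (UMI). The labels state 16 mice without saying whether this was per group, and nothing links a cell to its mouse, so each treatment was 1 library with no replicate. All intervals below are 95% intervals that cover counting error only, no p-value could be given, and a difference between the libraries cannot be told apart from a difference between any other 2 sets of mice or 2 captures.

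After quality limits, 14412 PS-MP and 14538 control cells remained, with medians of 8643 and 9502.5 UMIs, and 3 cell barcodes occurred in both libraries. Clusters were named from marker genes that held no collagen, and no collagen took part in the clustering. The classes compared between libraries were granulosa-like (9123 PS-MP and 10244 control cells), stromal fibroblast-like (1640 and 1832), theca-like (647 and 665), macrophage or monocyte-like (352 and 740) and blood endothelial-like cells (312 and 350). Levels are UMIs summed over a class and scaled to the total of that class as CPM. A luteal-like cluster led by Edn2 stood apart, with 1899 PS-MP and 6 control cells, and its levels are given for PS-MP alone.

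Collagens are secreted or membrane proteins whose alpha chains wind into helical trimers. Fibrillar collagens (types I, III, V and XI) give tissue its tensile strength and are made mostly by fibroblasts. Type IV collagen forms the sheet-like network of basement membranes, under endothelium and around muscle cells and, in the ovary, around each follicle, where granulosa cells rest on it. Other families decorate fibrils, link them to basement membranes or span the cell membrane.

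Type IV chains are encoded by gene pairs that lie head to head. The start regions of Col4a1 with Col4a2 and of Col4a5 with Col4a6 are shown, and those of Col4a3 with Col4a4 are not. The chains of the best expressed pair, Col4a1 and Col4a2, were counted in a narrow ratio over the classes with enough counts. Whether the start regions bear on this ratio was not tested. The windows run from 250 bases before to 50 bases after the start of each gene, from RefSeq on GRCm38.p6, each 5′ to 3′ on its own strand. Capitals in Col4a1 (minus strand, chr8:11312777-11313076) and Col4a2 (plus strand, chr8:11312555-11312854) mark the 78 bases that both windows share. Capitals in Col4a5 (plus strand, chrX:141475169-141475468) and Col4a6 (minus strand, chrX:141474027-141474326) mark the GC box GGGCGG or its reverse complement CCGCCC.
Col4a1: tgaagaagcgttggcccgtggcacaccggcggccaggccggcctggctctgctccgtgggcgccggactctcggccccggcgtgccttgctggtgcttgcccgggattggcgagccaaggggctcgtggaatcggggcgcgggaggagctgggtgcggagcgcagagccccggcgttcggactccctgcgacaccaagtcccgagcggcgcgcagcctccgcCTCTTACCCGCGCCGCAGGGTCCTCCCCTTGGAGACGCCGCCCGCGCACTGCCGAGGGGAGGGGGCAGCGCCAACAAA
Col4a2: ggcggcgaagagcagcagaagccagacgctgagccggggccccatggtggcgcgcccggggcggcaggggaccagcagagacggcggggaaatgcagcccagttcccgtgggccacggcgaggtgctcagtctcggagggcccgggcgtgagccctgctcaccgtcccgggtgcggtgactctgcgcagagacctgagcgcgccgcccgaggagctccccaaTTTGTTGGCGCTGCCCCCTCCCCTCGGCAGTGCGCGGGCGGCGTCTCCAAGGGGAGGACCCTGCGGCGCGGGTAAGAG
Col4a5: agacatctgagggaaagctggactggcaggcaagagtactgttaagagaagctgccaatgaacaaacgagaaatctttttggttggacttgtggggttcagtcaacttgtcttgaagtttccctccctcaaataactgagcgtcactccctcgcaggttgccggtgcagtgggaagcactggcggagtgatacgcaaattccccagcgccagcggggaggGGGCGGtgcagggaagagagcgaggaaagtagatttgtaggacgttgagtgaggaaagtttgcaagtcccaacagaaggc
Col4a6: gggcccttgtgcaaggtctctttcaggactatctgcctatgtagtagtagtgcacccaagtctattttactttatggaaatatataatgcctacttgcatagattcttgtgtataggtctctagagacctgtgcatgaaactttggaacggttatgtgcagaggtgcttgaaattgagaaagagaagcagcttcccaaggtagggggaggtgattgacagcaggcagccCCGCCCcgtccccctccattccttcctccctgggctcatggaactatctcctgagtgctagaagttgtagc
The Col4a5 and Col4a6 windows did not overlap and lay 842 bases apart. Windows were found for 35 of the 44 collagen genes. An overlap with a window on the opposite strand was held by 10.3% of all 27025 genes with a window, and among the collagens by Col4a1 and Col4a2 alone. The shared 78 bases held GGGCGG and CCCTCCCC, a stretch of the CTC box described for this promoter, each on either strand, and neither CCAAT nor TATAAA. Each motif was sought on both strands by itself, and CCGCCC and CCCTCCCC can overlap. GGGCGG stood in 22 of the 35 collagen windows (62.9%) and in 35.9% of all windows, CCCTCCCC in 10 (28.6%) and in 10.4%, CCAAT in 12 (34.3%) and in 37.9%, and TATAAA in 5 (14.3%) and in 14.2%. A match describes the letters and not a bound site.

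Of the 44 genes, 28 reached 20 CPM in a class of at least 50 cells, and 27 of these had the same highest class in both libraries. The stromal fibroblast-like class was highest for 15 of them. Collagen UMIs together made up 3.11% of all stromal UMIs in the PS-MP library and 2.83% in the control library. The share was 1.45% and 1.45% in smooth muscle or pericyte-like cells (92 PS-MP and 145 control cells), 0.659% and 0.607% in blood endothelial-like cells and 0.653% and 0.596% in theca-like cells. It was low in granulosa-like cells, at 0.0702% and 0.0728%, and in macrophage or monocyte-like cells, at 0.105% and 0.0462%. The makeup differed by class in both libraries. Fibrillar chains were 63.9% and 61.9% of the collagen UMIs of stroma and 3.06% and 4.42% of those of endothelium, where type IV chains were 79.7% and 75.7%.

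**Figure D1:**
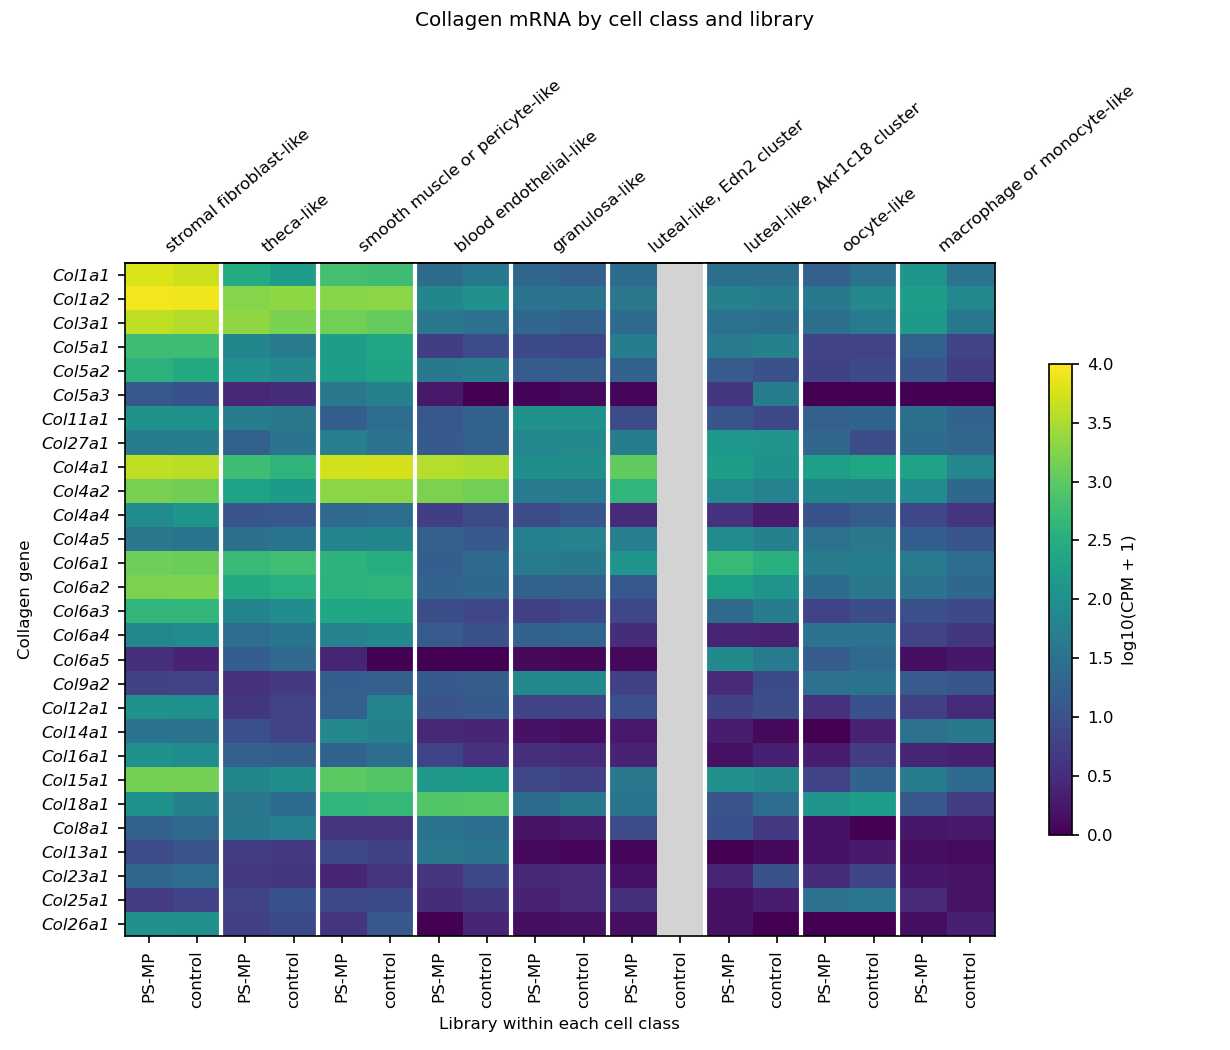
Level of the 28 collagen genes that reached 20 CPM, as log10(CPM + 1), with genes in rows and each cell class in a pair of columns, PS-MP then control; grey marks the Edn2 luteal-like cluster of the control library, with 6 cells. The pairs of columns look alike within a class, with Col1a1, Col1a2, Col3a1, Col5a1 and Col5a2 highest in stroma, Col4a1 and Col4a2 bright in stroma, pericyte-like and endothelial-like cells, Col9a2 highest in granulosa-like cells, Col11a1 alike in granulosa-like cells and stroma, and Col27a1 highest in the Akr1c18 luteal-like cluster.

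RNA freed from stromal cells can be captured with other cells, so each level was set against the level that such carry-over alone would give. The carried share was the summed CPM of 6 stromal genes (Dcn, Lum, Mfap4, Dpt, Ogn and Tcf21) in a class over that in stroma, and the chain's stromal CPM times this share is its carry-over level. The share was 0.544% in PS-MP and 0.585% in control granulosa-like cells, 0.588% and 0.971% in endothelial-like cells, 1.64% and 1.18% in macrophage or monocyte-like cells, and 11.8% and 10.4% in theca-like cells. A class that makes some of the 6 genes itself, as theca cells may, gets a carry-over level that is too high. A chain is called above carry-over here when its level was at least 3 times the carry-over level in both libraries.

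Between the libraries, a chain was counted as higher or lower when it reached 20 CPM in a library and PS-MP CPM over control CPM was at least 1.5, or at most its inverse. In stromal fibroblast-like cells 1 chain of the 23 at this level was higher (Col18a1), beside 0.854% of all genes at this level, and 1 was lower (Col4a4), beside 0.21%; in either direction 1.06% of all genes passed. In theca-like cells 3 of 18 were higher (Col1a1, Col5a1 and Col18a1), beside 0.958% of all genes, and 2 were lower (Col6a5 and Col27a1), beside 1%; in either direction the share of all genes was 1.96%. In granulosa-like cells 0 of 11 were higher, beside 0.0544% of all genes, and 1 was lower (Col18a1), beside 0.463%; in either direction the share was 0.517%. In endothelial-like cells 0 of 12 were higher, beside 2.21% of all genes, and 3 were lower (Col1a1, Col1a2 and Col6a1), beside 3.33%; in either direction the share was 5.54%. In macrophage or monocyte-like cells 8 of 11 were higher, beside 3.97% of all genes, and 0 were lower, beside 1.6%; in either direction the share was 5.57%. With so few chains per class, single genes make these counts, and several rested on a few cells, as described below.

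**Figure D2:**
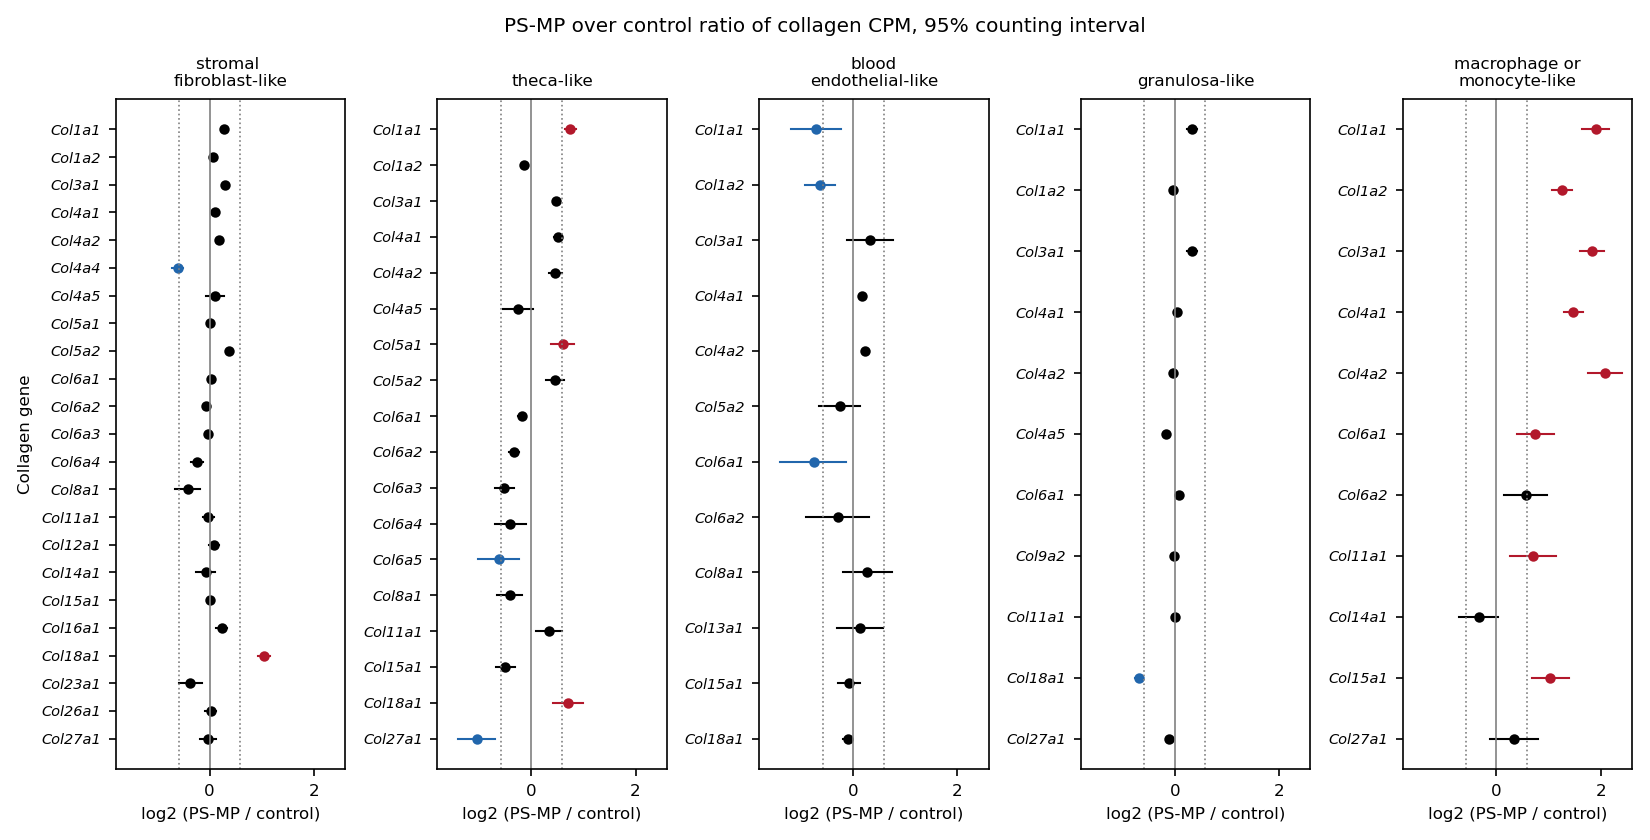
CPM in PS-MP over CPM in control on a log2 scale for each collagen gene that reached 20 CPM in a library, in the 5 classes compared; points are ratios, lines 95% counting intervals, dotted lines the 1.5-fold limits, and red and blue mark genes past the limit with higher and lower PS-MP levels. Most stromal and granulosa points lie near 0, Col18a1 lies past the upper limit in stroma and theca and past the lower limit in granulosa-like cells, and most macrophage points lie to the right.

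Col1a1 and Col1a2, the chains of type I collagen, were the collagens with the highest CPM in stroma, together with Col3a1 and Col4a1. Col1a1 stood at 5964 CPM in PS-MP and 4909 CPM in control stromal cells, a ratio of 1.21 (1.20 to 1.23). Col1a2 stood at 8561 and 8131 CPM, a ratio of 1.05 (1.04 to 1.06). Stroma held 93.9% of all Col1a1 UMIs of the PS-MP library and 95.2% of those of the control library. Col3a1, the chain of type III collagen that copolymerises with type I in soft tissue, stood at 4197 and 3408 CPM in stroma, a ratio of 1.23 (1.22 to 1.25). Col5a2, a type V chain that sits in the core of type I fibrils, stood at 366 and 281 CPM (ratio 1.30, 1.25 to 1.36), while its partner Col5a1 stood at 582 and 579 CPM (1.00, 0.976 to 1.04). None of these stromal ratios reached 1.5.

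The stromal class was not uniform. Split into sub-clusters, of which 9 had at least 20 cells, it showed higher Col1a1 in PS-MP in 9 of 9 (ratios from 1.02 to 1.75), and higher Col3a1 in 8 of 9 (from 0.932 to 2.26). Both ratios were greatest in the sub-cluster led by Car3 and Cck (227 PS-MP and 150 control cells), where Col3a1 stood at 5004 and 2217 CPM. Col11a1, a minor fibril chain best known from cartilage, was highest, among sub-clusters of at least 20 cells, in the one led by Ccn5 and S100b, at 274 and 278 CPM. A sub-cluster with smooth muscle genes (Myh11, Actg2; 12 PS-MP and 6 control cells) held it at 1110.0 and 529 CPM. Col5a3, the third type V chain, was not highest in stroma (11.4 and 9.32 CPM) but in pericyte-like cells, at 38.4 and 54.7 CPM (0.702, 0.416 to 1.15). The Akr1c18 luteal-like cluster (131 PS-MP and 230 control cells) held Col5a3 at 3.24 CPM in PS-MP and 48.4 CPM in control cells (0.0669, 0.0243 to 0.148), which rested on 6 and 193 UMIs, and 3.82% and 11.3% of the cells had a UMI of it. Sub-clusters were drawn without collagens, so the differences between stromal sub-clusters were not used to form them.

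Theca cells, the steroid-making sheath of the follicle, differed from stroma in the balance of the fibrillar chains. Col3a1 stood at 2177 CPM in PS-MP and 1577 CPM in control theca-like cells (ratio 1.38, 1.35 to 1.42), which was 4.40 and 4.45 times its carry-over level. Col1a1 stood at only 285 and 169 CPM (1.68, 1.56 to 1.81), below its carry-over level of each library, of which it made 0.405 and 0.331. Col1a2 stood at 1887 and 2084 CPM (0.905, 0.883 to 0.928). The number of Col1a1 UMIs per Col1a2 UMI was thus 0.151 and 0.0812 in theca-like cells, against 0.697 and 0.604 in stroma. Col1a1 was higher in PS-MP in 4 of 4 theca sub-clusters of at least 20 cells, with ratios from 1.47 to 3.73, and the 6 stromal genes summed to 371 and 340 CPM in theca-like cells. Dcn, Mfap4 and Tcf21 stood higher in PS-MP (Dcn at 142 and 104 CPM) and Ogn, Lum and Dpt lower (Ogn at 189.7 and 200.5 CPM). The part of carried-over stromal RNA in the Col1a1 difference was not tested. Col5a1 stood at 67.4 and 44.3 CPM (1.52, 1.31 to 1.77), at 0.983 and 0.736 of its carry-over level. Col27a1, a fibrillar chain of cartilage and other tissues, went the other way, at 16.3 and 33.7 CPM (0.483, 0.377 to 0.614), and was lower in PS-MP in 4 of 4 sub-clusters. At a mitochondrial limit of 10% none of these 3 calls held, with ratios of 1.47 for Col1a1, 1.20 for Col5a1 and 0.782 for Col27a1. That limit left 122 PS-MP and 169 control theca-like cells, under the 200 cells asked for in a comparison. Col27a1 was highest not in theca but in the Akr1c18 luteal-like cluster, at 135 and 123 CPM.

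The main type IV chains were counted most in pericyte-like, stromal and endothelial-like cells. Col4a1 stood at 5284 CPM in PS-MP and 5536 CPM in control smooth muscle or pericyte-like cells, at 4159 and 3846 CPM in stroma, at 3586 and 3177 CPM in endothelial-like cells and at 564 and 394 CPM in theca-like cells. Its partner Col4a2 stood at 1987 and 2047 CPM in pericyte-like, 1646 and 1395 CPM in endothelial-like and 1523 and 1342 CPM in stromal cells. In endothelial-like cells both chains were far above carry-over, at 147 and 85.1 times for Col4a1 and 184 and 107 times for Col4a2. Ratios between the libraries were small: 1.08 (1.07 to 1.09) in stroma and 1.13 (1.10 to 1.16) in endothelium for Col4a1. Granulosa-like cells held little of it, at 96.0 and 93.7 CPM, though 4.24 and 4.17 times its carry-over level. These multiples depend on the genes used: the control share was 0.585% by the 6 genes and 1.19% by Ogn alone. They also count stroma as the only source, and RNA carried over from pericyte-like, endothelial-like or luteal-like cells was not taken into account. The Edn2 luteal-like cluster, with 1899 PS-MP and 6 control cells, held 22541 of the 103075 Col4a1 UMIs of the PS-MP library. The part of its RNA in the PS-MP levels of other classes was not tested. In theca-like cells Col4a1 had a ratio of 1.43 (1.36 to 1.51), and it lay at its carry-over level there, at 1.15 and 0.985 times. The Edn2 luteal-like cluster of the PS-MP library held 1057 CPM of Col4a1 and 428 CPM of Col4a2, and type IV chains made 76.5% of its collagen UMIs.

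The head-to-head pair Col4a1 and Col4a2 kept a narrow ratio. A UMI stands for a molecule, so the ratio of UMIs of a pair does not scale with transcript length, though capture may differ between transcripts, and it is read here only across classes. Over the 17 sums of a class and a library with at least 100 UMIs of each chain, Col4a1 had between 1.90 and 3.47 UMIs per UMI of Col4a2, a range of 1.83-fold. The chains of type I, which lie on different chromosomes, ranged 13.1-fold over 16 such sums, from 0.0812 to 1.06 UMIs of Col1a1 per UMI of Col1a2. The lowest was in control theca-like cells and the highest in 47 T, NK or innate lymphoid-like cells of the PS-MP library. Col3a1 and Col1a2, chains of different collagen types, ranged only 3.34-fold over 14 sums, from 0.346 to 1.15. Col6a1 and Col6a2, neighbours read in the same direction, ranged 18.3-fold over 14 sums, from 0.561 to 10.3. The lowest value was in 20 control surface epithelium-like cells and the highest in the Edn2 luteal-like cluster. Col4a5 and Col4a6, whose windows are shown above and do not overlap, ranged 2.21-fold over only 3 sums. Col4a3 and Col4a4, another head-to-head pair, were not put in this comparison, and their balance differed by class. Stroma held 24.4% and 30.1% of the Col4a3 UMIs of the PS-MP and control libraries, and 57.1% and 60.8% of those of Col4a4. Granulosa-like cells held 57.5% and 62.4% of Col4a3 UMIs, and 34.2% and 33.5% of those of Col4a4. The sums of a library share its free RNA, and the ranges are a description with no test.

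The minor type IV chains had other patterns. Col4a5, a chain of the specialised membranes of kidney, testis and follicle, was the gene whose highest class differed between libraries, with 83.6 and 54.6 CPM in the Akr1c18 luteal-like cluster and 62.4 and 67.5 CPM in pericyte-like cells. Granulosa-like cells held it at 52.0 and 58.6 CPM, 258 and 291 times its carry-over level. Col4a6 peaked below 20 CPM, and granulosa-like cells held it at 13.3 and 15.2 CPM. Col4a4, better known from the kidney glomerulus, was highest in stroma, at 83.1 CPM in PS-MP and 126 CPM in control cells, a ratio of 0.657 (0.611 to 0.706). It was lower in PS-MP in 7 of 9 stromal sub-clusters, by most in the one led by Car3 and Cck (43.9 and 199 CPM). Its ratio lay just inside the fold limit with doublets kept (0.679), under TMM scaling (0.669) and with sub-clusters weighted alike (0.687). Its partner Col4a3 stayed below 20 CPM and stood at 5.20 and 10.8 CPM in stroma (0.480, 0.359 to 0.635). The direction was not particular to stroma, as Col4a4 was lower in PS-MP in 6 of 7 granulosa-like clusters. Without the granulosa-like cluster led by Gatm and Car4, Col4a4 stood at 5.93 and 8.60 CPM (0.690, 0.618 to 0.770). Col4a3 stood at 1.33 and 2.43 CPM in the same cells (0.546, 0.434 to 0.684).

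Type VI chains form beaded microfilaments around cells. Col6a1 stood at 1303 CPM in PS-MP and 1277 CPM in control stroma (ratio 1.02), Col6a2 at 1620.45 and 1695 CPM (0.956) and Col6a3 at 421 and 430.0 CPM (0.980), so that none of the 3 neared the fold limit. Col6a4, another chain of the family, was highest in stroma too, at 71.1 and 84.1 CPM (0.845, 0.778 to 0.917). Of its UMIs, 53.5% and 52.4% lay in the many granulosa-like cells, where it stood at 17.0 and 19.1 CPM, 44.1 and 38.8 times its carry-over level, and highest in the cluster led by Gatm and Car4 (85.2 and 86.4 CPM). Among classes of at least 50 cells in both libraries, the Akr1c18 luteal-like cluster was richest in this family relative to its other collagens, with type VI, VII and XXVIII chains at 49.6% and 43.6% of collagen UMIs. Col6a1 stood there at 507 and 341 CPM (1.49, 1.37 to 1.62), far above carry-over (52.7 and 40.9 times). Col6a5, a rarely expressed chain, was highest in the same cluster, at 79.9 and 42.8 CPM (1.86, 1.49 to 2.34). This cluster is small and was not among the classes compared. Within theca-like cells Col6a5 stood at 14.4 and 22.3 CPM (0.648, 0.492 to 0.848), and was highest in the sub-cluster led by Gpx3 and Saa3, at 50.9 and 114 CPM. This direction depended on depth: with cells thinned to 3500 UMIs the ratio was 1.14. In endothelial-like cells Col6a1, at 14.4 and 24.3 CPM (0.595, 0.379 to 0.913), lay within 1.88 and 1.96 times its carry-over level.

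Some fibrillar and type VI chains stood lower in PS-MP endothelial-like cells. Col1a1 stood at 25.3 CPM in PS-MP and 41.2 CPM in control endothelial-like cells (0.614, 0.439 to 0.849), and Col1a2 at 66.8 and 104 CPM (0.645, 0.526 to 0.787). Col3a1 did not share this direction, at 39.3 and 31.4 CPM (1.25, 0.923 to 1.69), and Col1a1 and Col1a2 were each higher in PS-MP in 3 of 6 sub-clusters of at least 20 cells (Col1a1 ratios from 0.216 to 5.06). The 6 stromal genes summed to 18.5 and 31.7 CPM in the same cells, with Dpt at 0 in both. Col1a1 made 0.721 and 0.864 of its carry-over level, and the part of carried-over RNA was not tested. With the carry-over level taken off, Col1a1 was at 0 in both, Col1a2 at 16.4 and 24.6 CPM, and Col6a1 at 6.78 and 11.9 CPM, a ratio of 0.570 past the fold but under 20 CPM. With doublets kept the Col1a1 ratio was 1.37. The sub-cluster with pericyte genes (Acta2, Rgs5, 17 PS-MP and 14 control cells) held Col1a2 at 354 and 797 CPM, the highest in the class. Another sub-cluster (40 PS-MP and 45 control cells) was led by the lymphatic markers Ccl21a, Mmrn1, Reln and Lyve1. It held the granulosa marker Inha at 6331 and 6328 CPM, and Col4a1 at only 957 and 958 CPM, so the class was not blood endothelium alone.

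Granulosa cells nourish the oocyte and line the inside of the follicle's basement membrane. They are not classical makers of fibrils, and their collagens split into those above and those below carry-over. Of the 11 chains at 20 CPM, 8 were above carry-over in both libraries and 3 lay below it in both. The 3 were the main fibril chains: Col1a1 at 20.2 CPM in PS-MP and 16.0 CPM in control cells, Col1a2 at 32.4 and 33.1 CPM and Col3a1 at 20.3 and 16.0 CPM, at 0.623 and 0.558, 0.696 and 0.695, and 0.888 and 0.804 of their carry-over levels. With every cell thinned to 3500 UMIs, which left no cell out, Col1a1 had a UMI in 5.66% and 4.58% of granulosa-like cells (12.0% and 10.9% unthinned), against 8.60% and 9.21% of oocyte-like cells (18.3% and 18.4% unthinned), which should lack it. These shares are at or below that background and were not read as expression. Median depths were 8952 and 9914.5 UMIs in granulosa-like cells and 15442 and 22942.5 UMIs in oocyte-like cells.

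**Figure D3:**
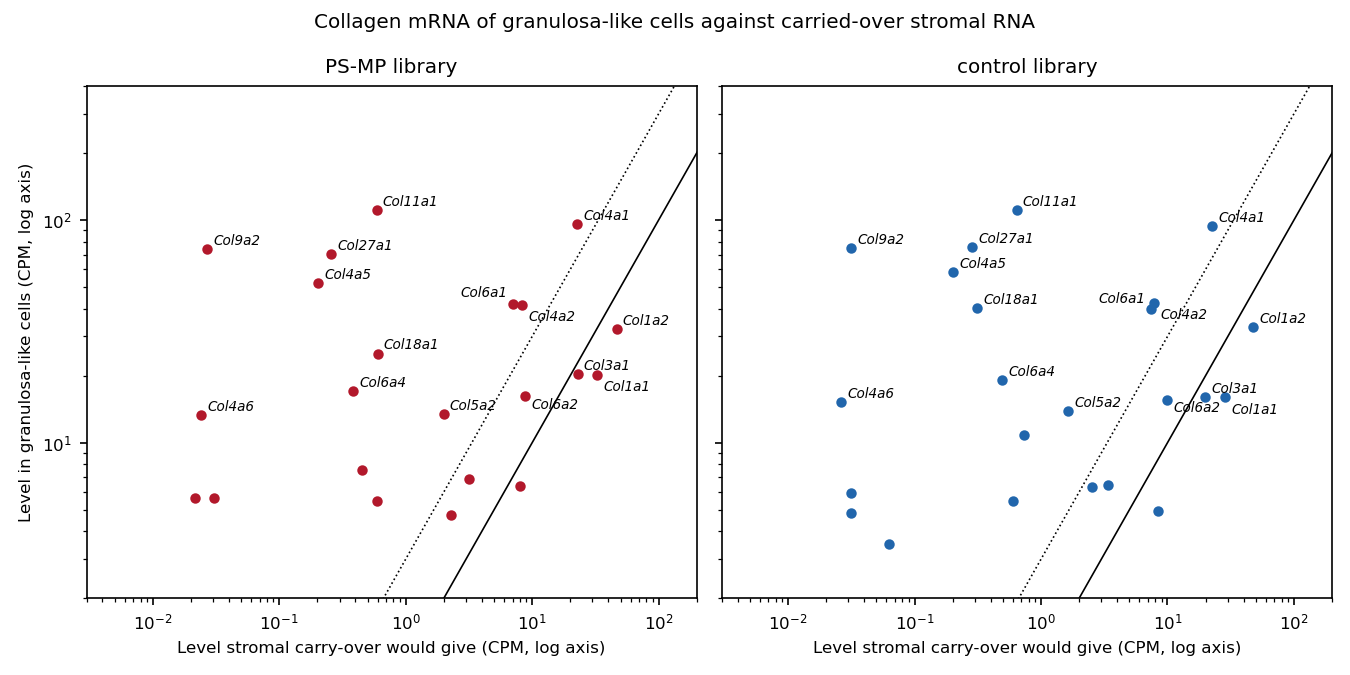
Level of each collagen gene of at least 3 CPM in granulosa-like cells (CPM, log axis) against the level that stromal carry-over would give (CPM, log axis), PS-MP on the left and control on the right; points are genes, the solid line marks equal levels and the dotted line 3 times the carry-over level. Col1a1, Col1a2 and Col3a1 lie under the solid line, and Col11a1, Col9a2, Col27a1 and Col4a5 lie far above the dotted line in both libraries.

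Of the 8 chains above carry-over, Col4a1, Col4a2, Col6a1 and Col18a1 stood higher in stroma, and Col4a5, Col9a2 and Col27a1 higher in granulosa-like cells. Col11a1 was about level, at 111 CPM in PS-MP and 111 CPM in control granulosa-like cells (ratio 1.00, 0.977 to 1.03), 189 and 173 times its carry-over level, against 108 and 109.8 CPM in stroma. Col9a2, a chain of the type IX collagen that coats type II and XI fibrils in cartilage, stood at 74.2 and 75.1 CPM (0.988, 0.956 to 1.02), 2739 and 2370.0 times its carry-over level, against 4.97 and 5.42 CPM in stroma. Col27a1 stood at 70.2 and 75.6 CPM (0.928, 0.898 to 0.959), against 47.6 and 48.7 CPM in stroma. Col2a1, the main fibril chain of cartilage, had 11 UMIs in the PS-MP library and 17 in the control library in all, and Col9a1 had 10 and 19. The cartilage-type fibril partners were thus counted without type II chains. With cells thinned to 3500 UMIs, Col11a1 had a UMI in 24.2% and 23.9% of granulosa-like cells (37.1% and 37.5% unthinned) and in 8.60% and 7.89% of oocyte-like cells (16.1% and 23.7% unthinned).

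The granulosa-like class fell into 7 clusters that used different chains. Col11a1 was highest in the cluster led by Ace and H19, at 384 CPM in PS-MP and 360.4 CPM in control cells, and next in the cluster led by Itih5 and Ntng1, at 229 and 233 CPM, with all others at or under 49.0 and 47.4 CPM. The Ace and H19 cluster also held Col4a1 at 417 and 475 CPM and Col4a5 at 124 and 144 CPM. The cluster led by Lhcgr, Inhba and Cyp19a1, whose leading genes belong to the later antral follicle, held little Col9a2 (23.4 and 10.2 CPM). The dividing cluster led by Inhbb and Prc1 held less still (10.1 and 3.74 CPM), against 132 and 139 CPM in the Itih5 cluster. A small cluster led by Gatm, Car4 and Omg held Col4a1 at 546 and 397 CPM, above the Ace and H19 cluster in PS-MP and below it in the control library, and held the highest Col6a1 of both libraries, at 161 and 142 CPM. This cluster took the granulosa name with 9 of 11 granulosa markers at 20 CPM, but none of them was among its leading genes. Ratios between the libraries differed by cluster more than the class sums show. Col6a1 was higher in PS-MP in 5 of 7 clusters and lower in 2, with ratios from 0.570 to 2.06. Col4a1 was higher in 5 and lower in 2 (0.878 to 1.94), and Col4a2 higher in 6 and lower in 1 (0.841 to 2.16). Col9a2 was higher in 4 and lower in 3 (0.662 to 2.71).

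**Figure D4:**
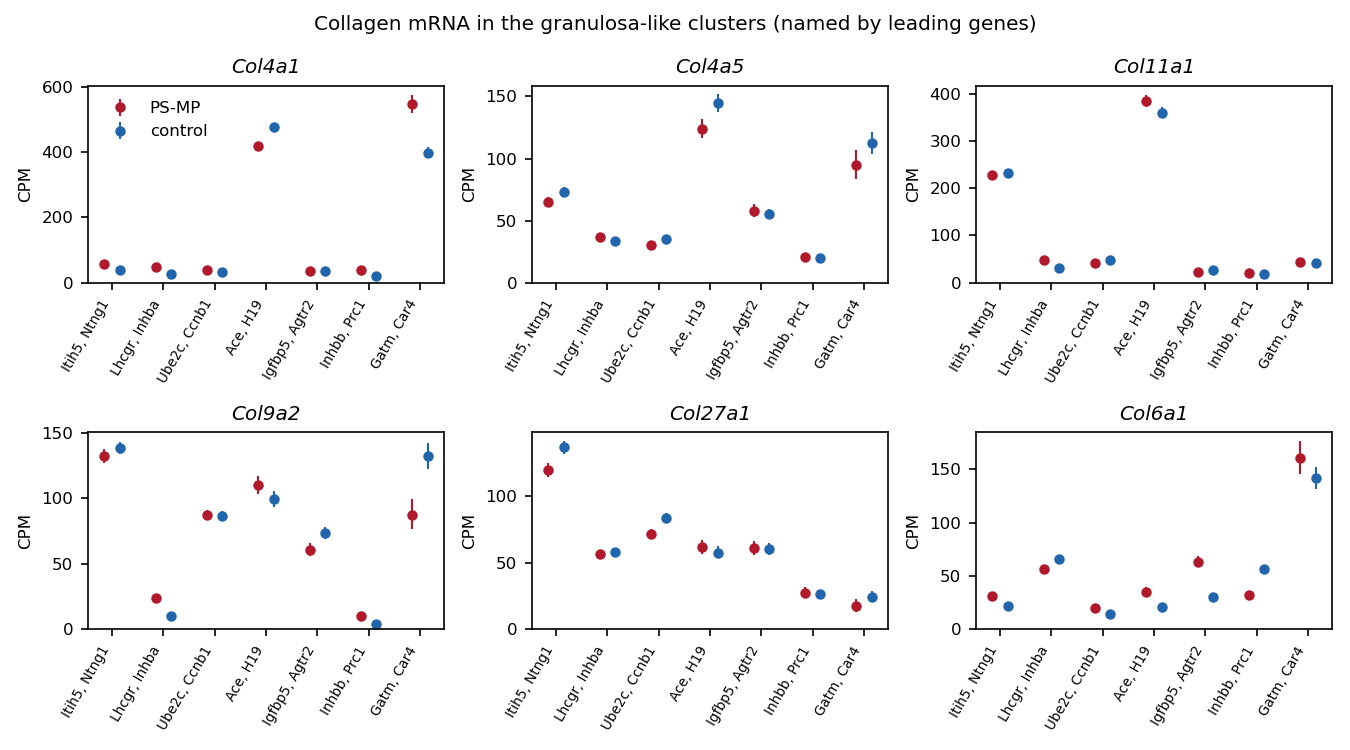
Level of 6 collagen genes (CPM) in the 7 granulosa-like clusters, each named by its leading genes, PS-MP in red and control in blue; points are levels and bars 95% Poisson intervals. In both libraries Col11a1 peaks in the Ace and H19 cluster and Col6a1 in the Gatm and Car4 cluster, while Col4a1 is highest in the Gatm and Car4 cluster of the PS-MP library and in the Ace and H19 cluster of the control library.

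Col18a1 was past the fold in 3 classes, higher in PS-MP stroma and theca and lower in PS-MP granulosa-like cells. It encodes a basement membrane collagen whose cleaved end is endostatin, an inhibitor of vessel growth. It was highest in endothelium, at 821 CPM in PS-MP and 881 CPM in control cells (ratio 0.933, 0.878 to 0.991), followed by pericyte-like cells at 429 and 462 CPM. In stroma it stood at 110.3 and 53.4 CPM, a ratio of 2.06 (1.90 to 2.24). It was higher in PS-MP in 9 of 9 sub-clusters of at least 20 cells, with ratios from 1.09 to 5.50, and intervals above 1 in 8 of them. Among these the highest level was in the sub-cluster led by Spp1 and C3, at 494 and 315 CPM. Leaving out any 1 sub-cluster left ratios from 1.93 to 2.27.

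Endothelial RNA was measured beside this difference. The 9 endothelial markers summed to 123 CPM in PS-MP and 127 CPM in control stroma, which was 1.90% and 1.89% of their endothelial level. At that share endothelial RNA would bring 15.6 and 16.6 CPM of Col18a1. Taking it off left 94.7 and 36.8 CPM, a ratio of 2.57. In theca-like cells Col18a1 stood at 39.7 and 24.5 CPM (1.62, 1.33 to 1.99), and at 34.6 and 18.6 CPM, a ratio of 1.86, with endothelial RNA taken off. With stromal carry-over taken off instead it stood at 26.7 and 18.9 CPM, and the ratio of 1.41 no longer passed the fold. It was higher in PS-MP in 3 of 4 theca sub-clusters of at least 20 cells.

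In granulosa-like cells Col18a1 was lower in PS-MP, at 25.1 CPM against 40.3 CPM in control cells (0.623, 0.592 to 0.656). The gene was concentrated in the Gatm and Car4 cluster, at 515 and 613 CPM, and in the cluster led by Igfbp5, Agtr2 and Amh, at 54.6 and 58.8 CPM, while the other 5 clusters held between 2.43 and 8.53 CPM. The Gatm and Car4 cluster was 3.88% (3.49% to 4.30%) of the granulosa-like cells of the PS-MP library and 6.03% (5.58% to 6.51%) of those of the control library, and held 63.3% and 73.2% of the class's Col18a1 UMIs. Without this cluster the class stood at 9.52 and 11.3 CPM, a ratio of 0.840 (0.767 to 0.919). The direction turned with the limit on mitochondrial counts: when cells above 10% were also left out, the ratio was 1.05. Far fewer granulosa-like cells remained at that limit, and no cluster led by Gatm, Car4 or Omg was found among them. The part of this cluster in the turn was not tested. The Gatm and Car4 cluster held the granulosa marker Inha at 3024 and 3113 CPM, and the other clusters held it at 4387 to 16163 CPM in PS-MP and 2575 to 16665 CPM in control cells.

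**Figure D5:**
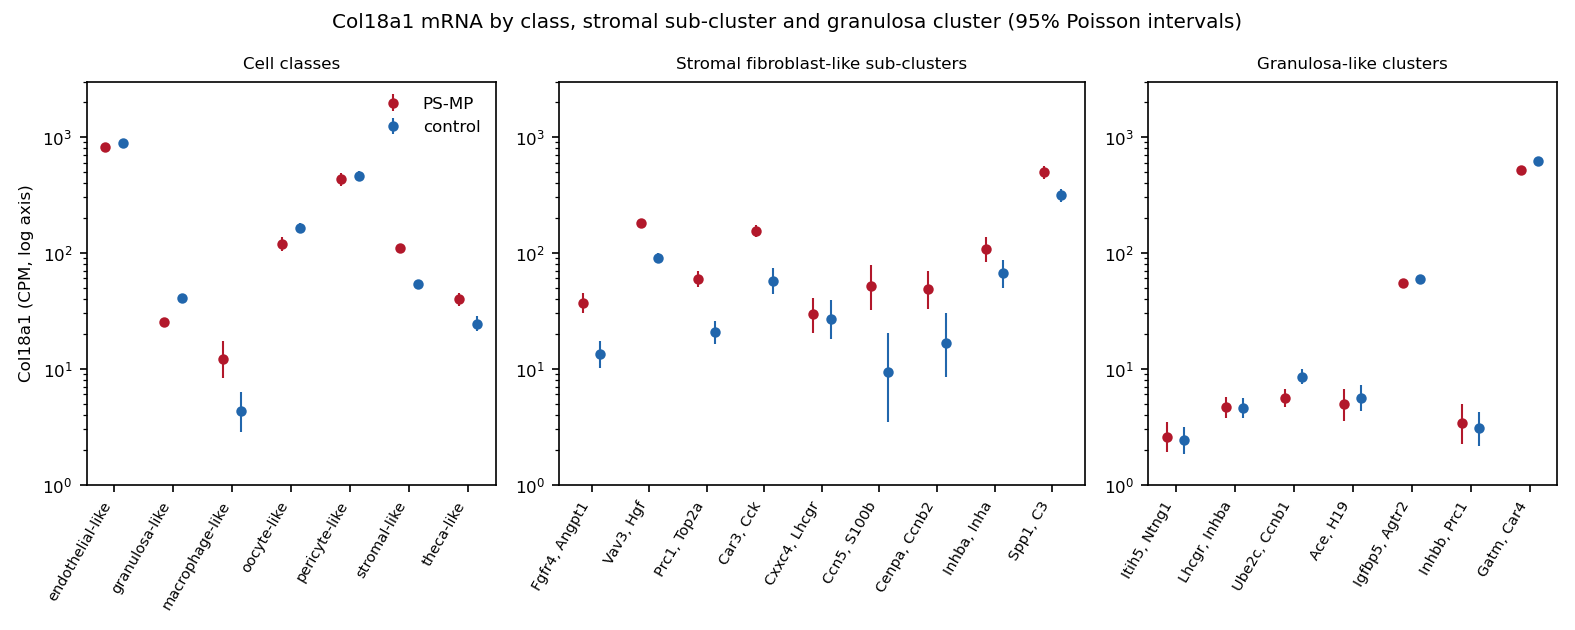
Level of Col18a1 (CPM, log axis) by cell class on the left, by stromal sub-cluster in the middle and by granulosa-like cluster on the right, sub-clusters and clusters named by leading genes, PS-MP in red and control in blue; bars are 95% Poisson intervals. All 9 stromal sub-clusters have the PS-MP point above the control point, and among granulosa-like clusters the gene is high in the Gatm and Car4 cluster and in the Igfbp5 and Agtr2 cluster.

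Col15a1, the sister of Col18a1 in the multiplexin family, ties basement membranes to fibrils. It stood at 1461 CPM in PS-MP and 1443 CPM in control stroma (1.01, 0.993 to 1.03) and at 986 and 847 CPM in pericyte-like cells. Within stroma it was concentrated in the sub-cluster led by Vav3 and Hgf (3817 and 3922 CPM) and in the one led by Spp1 and C3 (3905 and 2933 CPM). The Vav3 and Hgf sub-cluster also had the highest stromal Col4a1, at 8562 and 7468 CPM. In endothelial-like cells Col15a1 stood at 144 and 151 CPM.

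Among the fibril-associated chains, which bind the surface of fibrils, Col12a1 and Col16a1 were stromal, at 109 and 102 CPM and at 103 and 87.7 CPM. Col14a1 was highest in pericyte-like cells, at 70.4 CPM in PS-MP and 56.7 CPM in control cells, and stood at 32.4 and 34.1 CPM in stroma. Of the chains at 20 CPM in macrophage or monocyte-like cells it was the one farthest above carry-over, at 31.4 and 39.8 CPM (0.789, 0.606 to 1.02), which was 59.4 and 99.3 times its carry-over level. It sat there mainly in the sub-clusters led by Cp and Bmp2 (92.3 and 112 CPM) and by Tm4sf1 and Gzma (72.0 and 70.3 CPM).

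The remaining families were counted at low levels. Col8a1, a short-chain collagen of vessel walls, stood at 39.8 and 52.9 CPM in theca-like and 33.4 and 27.7 CPM in endothelial-like cells. Among the transmembrane collagens, Col13a1 was highest in endothelial-like cells (37.0 and 33.7 CPM), while 40.5% and 51.7% of its UMIs lay in the more numerous stromal cells at 7.13 and 9.67 CPM, and Col23a1 was highest in stroma (20.2 and 26.1 CPM). Col25a1, a transmembrane collagen known from neurons, was highest in oocyte-like cells (93 PS-MP and 76 control cells), at 31.2 and 36.1 CPM. Col26a1, described from testis and ovary, was highest in stroma, at 103 and 102 CPM. The 16 genes that stayed below 20 CPM in every class of at least 50 cells peaked at 0.548 CPM for Col2a1 up to 19.2 CPM for Col20a1.

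In macrophage or monocyte-like cells the 8 higher chains were Col1a1, Col1a2, Col3a1, Col4a1, Col4a2, Col6a1, Col11a1 and Col15a1. Col1a1 stood at 120.2 CPM in PS-MP and 32.1 CPM in control cells (3.74, 3.12 to 4.49), and Col4a2 at 86.8 and 20.5 CPM (4.24, 3.40 to 5.31). A sub-cluster led by Sfrp4, Prss35 and Dcn, with 26 PS-MP and 10 control cells, held the 6 stromal genes at 390.1 and 968 CPM, with Enpep and the steroid gene Cyp11a1 among its leading genes, and Col1a1 at 1185 and 726 CPM. Without it Col1a1 stood at 24.4 and 17.6 CPM (1.38, 0.986 to 1.92), and 3 of the chains were still past 1.5-fold higher: Col3a1 (1.81), Col4a2 (2.19) and Col11a1 (1.66). With called doublets kept, 0 chains were past the fold on the higher side in this class and 2 were lower (Col6a2 and Col15a1). Col11a1 in turn was highest in a sub-cluster with granulosa genes, at 123 and 82.1 CPM, where Inha stood at 6739 and 7356 CPM.

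Genes that modify, fold, secrete and crosslink collagens were counted next to the chains, by the same fold and level. In stroma 12 of 15 prolyl and lysyl modification genes reached 20 CPM and 0 passed the fold, and so did 9 of 10 folding and secretion genes with 0 past it. Serpinh1, the collagen chaperone of the endoplasmic reticulum, stood at 1748 CPM in PS-MP and 1692 CPM in control stroma. Of 5 crosslinking genes at this level 1 was higher: Lox, the lysyl oxidase that crosslinks fibrils, at 112 and 58.0 CPM (1.93, 1.78 to 2.10). Of 6 breakdown genes 1 was higher: Timp1, an inhibitor of matrix metalloproteases, at 218 and 118 CPM (1.85, 1.75 to 1.96). None was lower. Of all stromal genes at this level 0.854% were higher and 0.21% lower. The median log2 ratios of these 4 lists lay between 0.01 and 0.28, beside -0.02 for all stromal genes at this level. The fibril partners (9 of 13), basement membrane partners (11 of 15), propeptide processing genes (4 of 9) and collagen receptors (5 of 10) had 0 past the fold.

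In theca-like cells 3 of the listed genes were past the fold, named here after their values were seen. They were 1 of 5 breakdown genes and 1 of 9 basement membrane partners, both higher, and 1 of 11 modification genes, lower. Of all theca genes at 20 CPM 0.958% were higher and 1% lower. Mmp2, a gelatinase that cleaves type IV collagen, stood at 148 CPM in PS-MP and 80.4 CPM in control cells (1.84, 1.65 to 2.05). The nidogen gene Nid2 stood at 20.2 and 12.3 CPM (1.64, 1.23 to 2.19), and Colgalt2, which adds galactose to collagen, at 12.9 and 24.0 CPM (0.539, 0.406 to 0.709). In granulosa-like cells Plod2, a lysyl hydroxylase, was at 947 and 883 CPM, and Serpinh1 at 555 and 568 CPM, so genes of chain modification and folding were well counted in these cells too. Adamts2, which trims fibrillar procollagens, stood at 292 and 283 CPM in granulosa-like cells, above its 115 and 118 CPM in stroma. Of the listed genes at 20 CPM in granulosa-like cells 1 was past the fold, the laminin chain gene Lama4, named after its values were seen, at 13.7 and 24.9 CPM (0.551, 0.515 to 0.590). It was 1 of 6 basement membrane partners at this level, beside 0.463% of all granulosa genes that were lower. Another laminin chain gene, Lama1, stood at 236 and 227 CPM in granulosa-like cells, and Itga2, the alpha chain of a collagen receptor, at 106 and 104 CPM. In macrophage or monocyte-like cells, mixed sub-cluster included, more listed genes were higher, beside 3.97% of all genes. They were 3 of 8 folding and secretion genes, 3 of 5 basement membrane partners, 3 of 8 breakdown genes and 2 of 4 fibril partners. Modification had 1 of 8 higher, processing 1 of 3 and crosslinking 1 of 1, and 1 breakdown gene was lower.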

How the data were processed

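Per the labels' protocols, libraries were made with BD Rhapsody beads and sequenced on an Illumina instrument. What the authors deposited were UMI counts for each gene in each cell, without normalization. The submitters' processing notes name GRCm39 and Seurat without their role; aligner, counting tool and annotation were not given in the sources used here. A gene listed in 1 file only was set to 0 in the other.

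Cells with at least 500 genes and at most 25% mitochondrial counts were kept (286 PS-MP and 519 control cells failed the second limit), and doublets called by scrublet in scanpy 1.11.5 at an expected rate of 0.05 were left out (358 PS-MP cells, 2.42%, and 315 control cells, 2.12%). Counts were scaled to 10000 per cell and logged. Both libraries were clustered together on 2000 variable genes without collagens, 30 principal components and 15 neighbours by the Leiden method (leidenalg 0.10.2, resolution 0.5, seed 1) with no batch correction. Clusters were named by the marker list with the best mean relative level, provided that at least 3 of its genes reached 20 CPM. Names were rebuilt here and carry the ending "-like". The naming score and the limit of 3 times carry-over were set after the files were read.

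Sums of counts over a class within a library were expressed as CPM, counts scaled to the class total. Intervals of ratios are exact conditional binomial intervals, those of shares exact Clopper-Pearson and those of levels exact Poisson, and reads behind UMIs were not used. With 1 library per group no test was run. The interval code was tested on simulated counts. Classes with at least 200 cells in both libraries were compared. Genes named are all collagens at 20 CPM in a class of at least 50 cells and some of those that, in each list of collagen-related genes, were among up to 4 with the largest ratio in stroma or granulosa-like cells at 50 CPM or more and the highest one. The members, lists and limits were chosen with earlier results of these data known. Start windows came from a RefSeq table on GRCm38.p6 and were matched by symbol. Alternatives changed filters, resolution, depth, scaling (TMM of edgeR 4.0.16 and the median of ratios), level minimum, cluster weights and carry-over. Those leaving out mixed macrophage sub-clusters or the Gatm and Car4 cluster, or taking off endothelial RNA, were chosen after seeing the data.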

Additional observations from a re-analysis of the deposited data

Results flagged for a closer look

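Collagen chains with opposite directions in different classes were picked out because the ratio was past 1.5-fold up in a class and past 1.5-fold down in another. None of these differences between classes was tested, since each treatment had 1 library.

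Col1a1 had a PS-MP over control ratio of 3.74 in macrophage or monocyte-like cells and 1.68 in theca-like cells, and 0.614 in blood endothelial-like cells. Col1a2 had 2.39 in macrophage or monocyte-like and 0.645 in endothelial-like cells, and Col6a1 had 1.68 and 0.595 in the same classes. The 6 stromal carry-over genes summed to 51.5 CPM in PS-MP and 38.4 CPM in control macrophage or monocyte-like cells. The sums were 371 and 340 CPM in theca-like cells, and 18.5 and 31.7 CPM in endothelial-like cells. In theca-like cells Dcn, Mfap4 and Tcf21 stood higher in PS-MP and Ogn, Lum and Dpt lower. In macrophage or monocyte-like cells the interval of the ratio held 1 for each of these genes. The Sfrp4, Prss35 and Dcn sub-cluster of that class held them at 390.1 and 968 CPM. The part of carried-over RNA in the ratios was not tested.

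Col18a1 had a ratio of 2.06 in stromal fibroblast-like and 1.62 in theca-like cells, and 0.623 in granulosa-like cells. The cluster that held most granulosa Col18a1 was 3.88% of PS-MP and 6.03% of control granulosa-like cells, and the ratio without it was 0.840. The stromal ratio was above 1 in 9 of 9 sub-clusters of at least 20 cells.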

How the results depend on the processing

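The stromal Col18a1 ratio of 2.06 passed the fold under all 9 alternative settings, from 1.89 to 2.10, and was 2.57 with endothelial RNA taken off. Each other call of a chain past 1.5-fold was lost under at least 1 setting. Of 23 stromal chains 2 passed the fold, but 1 with doublets kept, 1 under TMM scaling, 1 with sub-clusters weighted alike and 7 with a minimum of 10 counts in place of CPM. Of the theca chains 5 passed, but 9 at resolution 0.3, 9 at resolution 1, 8 with collagens in the clustering, 2 at 50 CPM, 8 at 10 counts and 9 weighted alike. In granulosa-like cells 1 passed, but 0 at a mitochondrial limit of 10%, 0 at 50 CPM, 0 weighted alike, 0 without the Gatm and Car4 cluster and 11 at 10 counts. In endothelial-like cells 3 passed, but 1 each with doublets kept, with collagens in the clustering, at 50 CPM, weighted alike and without cells holding 3 stromal UMIs, 0 with carry-over taken off (Col6a1 kept a ratio of 0.570 but stood under 20 CPM) and 9 at 10 counts. In macrophage or monocyte-like cells 8 passed, but 2 with doublets kept (both lower in PS-MP), 2 weighted alike, 5 at 50 CPM, 5 with carry-over taken off, 3 without the mixed sub-cluster and 18 at 10 counts. By Ogn alone, 5 in place of 8 granulosa chains were above carry-over in the control library.

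Among the chains past 1.5-fold, directions reversed as follows. In endothelial-like cells Col1a1 was 1.37 with doublets kept and 1.31 with collagens in the clustering, and Col1a2 was 1.27 without cells holding stromal UMIs. Granulosa Col18a1 was 1.05 at the mitochondrial limit of 10%, where no cluster was led by Gatm and Car4. In macrophage or monocyte-like cells Col1a1 was 0.980 weighted alike, Col1a2 was 0.957 and Col6a1 0.916 with doublets kept, Col6a1 was 0.978 weighted alike, and Col15a1 was 0.634 with doublets kept, 0.585 weighted alike, 0.976 without cells holding stromal UMIs and 0.682 without the mixed sub-cluster. Theca Col6a5 was 1.14 in cells thinned to 3500 UMIs. Without a change of direction, theca Col18a1 lost the fold with stromal carry-over taken off (1.41) and theca Col27a1 at the mitochondrial limit of 10% (0.782). That limit left 122 PS-MP and 169 control theca-like cells. The cause was not tested. Of the other ratios under an alternative, 610 moved by less than their interval and 168 by more. Ratios that were not past the fold could cross 1 without being listed as reversed. Granulosa Col9a2 lay just under 1 over the whole class, with an interval that held 1. It stood at 1.02 (0.988 to 1.06) without the Gatm and Car4 cluster. No paired analysis was possible because each treatment had 1 library, and no replicate could be left out. Depth limits chains under 20 CPM and the small classes, whose intervals are wide.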
